A study of Sus scrofa with 20 samples.

Results

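Cytokines and the receptors that read them were followed in pig kidney after neurologic death (ND). The genes were taken from the platform's gene symbols: those starting with IL and a digit, TNF, IFN, CSF, CCR, CXCR, CX3C or SOCS, leaving out IL6, TNF, IL1A, IL1B and IL18. The rule found 60 of the 6765 genes with a symbol of their own, and each was read from its brightest probe set. They comprised 28 receptors, 23 ligands, 4 suppressors of cytokine signalling (SOCS genes) and 5 others, namely an antagonist (IL18BP) and 4 genes whose symbols start with TNFAIP. Kidney RNA came from 20 pigs (Sus scrofa), with 1 array per animal, on 1-colour Affymetrix porcine arrays. The 10 ND animals had a balloon inflated beneath the dura until ND was established, on top of the procedure that the 10 Control animals also had, which was a burr hole, catheters and anaesthesia. Animals of both groups were ventilated for 6 h, received 0.9% saline boluses of 2 cc/kg to hold the mean arterial pressure above 35 mmHg, and had kidney tissue frozen at laparotomy. The 6 h were counted from randomization. Strain, age and sex are not given in the sources used here. Animals are named by group and number, as in ND_47. The kidney identity of the tissue was checked with tubule markers, of which 3 of 13 were measured, and AQP1, LRP2 and SLC22A6 read above background on all arrays.

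Most of these proteins act in pairs of a secreted or membrane-bound ligand and a receptor built of several chains. Chains are often shared: the product of IL10RB serves receptors for several members of the interleukin 10 and type III interferon families, and that of IL2RG, the common gamma chain, serves several interleukin receptors. Interferon receptors and many, but not all, interleukin receptors signal through JAK kinases and STAT transcription factors. These receptors have no enzyme activity of their own, and SOCS proteins switch that signal off. Receptors of the TNF superfamily signal instead through adaptor proteins to NF-kB, to MAP kinases or to cell death. Chemokine receptors couple to G proteins and steer leukocytes. In the kidney, tubule and endothelial cells carry many of these receptors, and resident and infiltrating leukocytes carry others. The roles given below are those known from human and mouse.

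In the kidneys of ND animals 5 of 28 receptors and 1 of 23 ligands were higher than in Control kidneys. The receptors were IL10RB, IL27RA, IFNAR1, TNFRSF21 and IL2RG, and the ligand was IL16. No receptor, ligand or SOCS gene was lower, and 1 further gene, TNFAIP8, was. The threshold was an adjusted p under 0.05 (limma, Benjamini-Hochberg over all 23999 probe sets tested), and differences in log2 signal are given as ND minus Control. Over all 6765 genes 5.44% were called higher and 4.55% lower. Among the 60 members 10% were called higher and 1.67% lower, which are 6 genes and 1 gene. The median difference was -0.022 over the 60 members, -0.022 over the receptors, -0.023 over the ligands and -0.017 over all genes. At an unadjusted p under 0.05 stood 21 of the 60 members, 14 of them receptors and 3 ligands, against 2033 of all 6765 genes. The labels name no litters or batches, and each array was taken as 1 animal. Animal numbers were unevenly spread over the groups, and no member passed in the fits that took them into account, as given below.

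**Figure D1:**
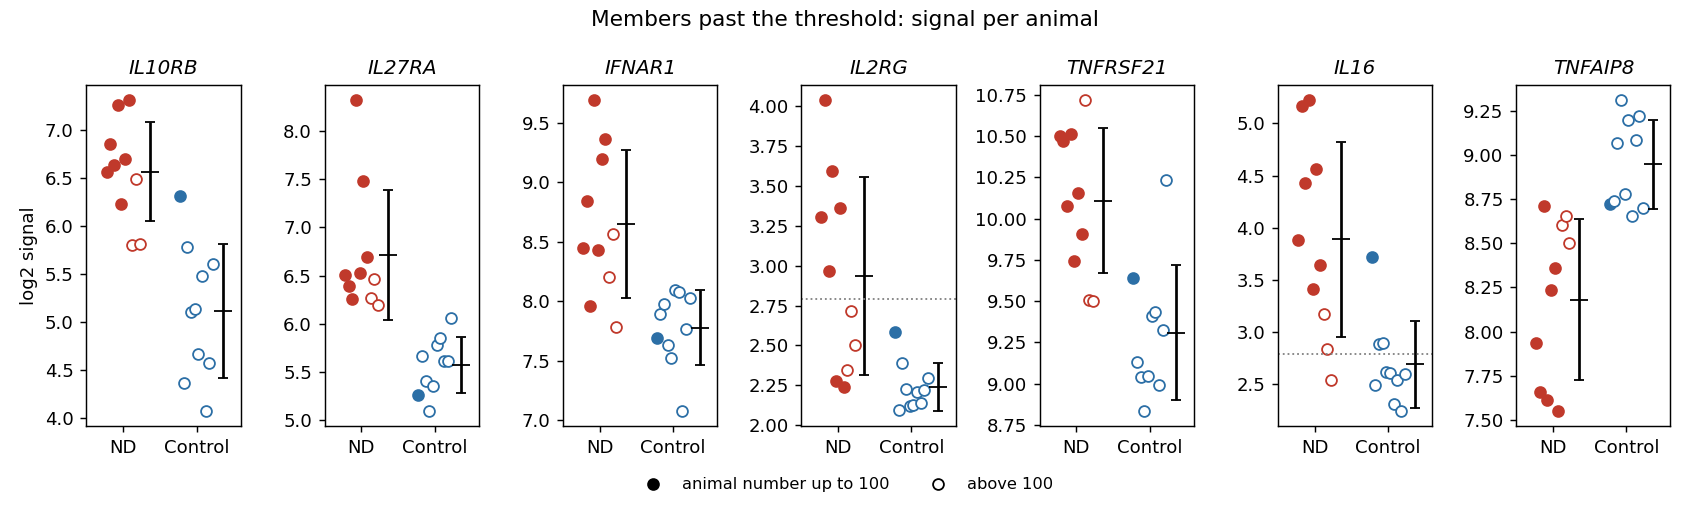
Log2 signal of the 7 members past the threshold in each of the 10 ND animals (left, red) and 10 Control animals (right, blue), with the mean and SD beside them. Filled points are animals numbered up to 100 and open points those above 100, and the dotted line is the background level of 2.79. IL27RA is the panel in which the groups do not overlap, and in the IL10RB, IL2RG and IL16 panels the highest Control point is the filled one, Control_02.

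Detection set apart the families before any comparison. Background was set at a log2 signal of 2.79, the highest reading of control probe sets with no target in kidney RNA. Of the 60 members 25 read at or under it on all 20 arrays, or 41.7%, against 12.4% of all genes. A further 26 read above it on all 20 arrays, and 9 on some. All 3 interferon receptor chains and all 5 TNF receptor superfamily members were above background on every array. Among chemokine receptors 6 of 8 were at background throughout (CCR2, CCR3, CCR7, CCR9, CCRL2 and CXCR6), as were 5 of 12 interleukin receptors (IL12RB2, IL18R1, IL2RA, IL6R and IL7R). Of the 23 ligands 13 were at background throughout: IL2, IL4, IL12A, IL12B, IL13, IL17A, IL17B and IL21, the interferons IFNB1, IFNG and IFN-DELTA-1, and the colony stimulating factors CSF2 and CSF3. For these genes a difference could not be read, which does not show that they were absent.

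**Figure D2:**
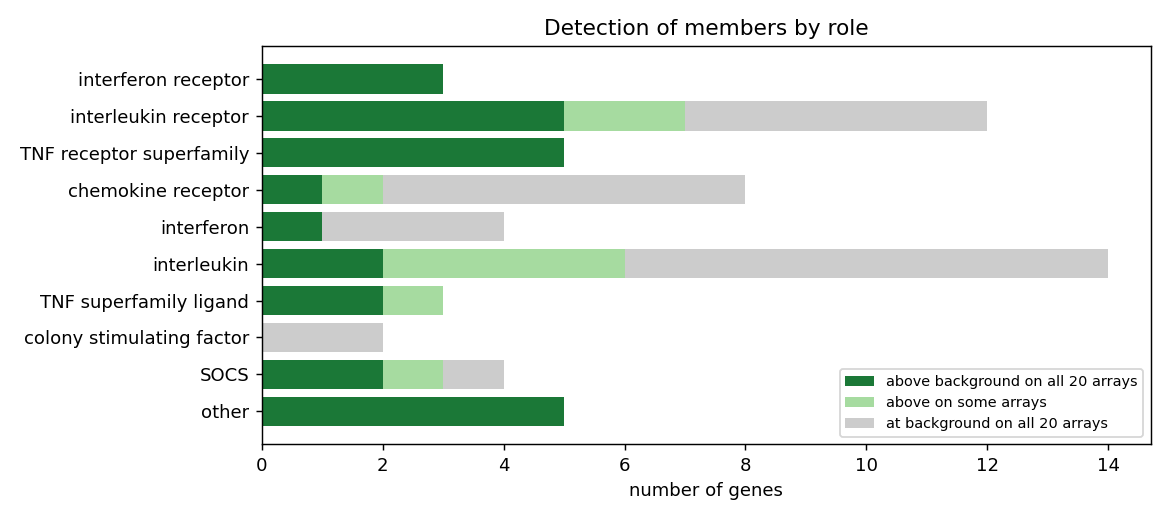
Number of genes in each role, split by whether the brightest probe set read above the background level on all 20 arrays (dark green), on some arrays (light green) or on none (grey). Interferon receptors (3 genes) and TNF receptor superfamily members (5 genes) are dark green throughout, while 6 of 8 chemokine receptors and both colony stimulating factors are grey.

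Of the interferon and interleukin 10 receptor chains IL10RB and IFNAR1 rose, and IL10RB had the largest difference of all 60 members. IL10RB read 5.81, 6.60 and 7.31 in ND kidneys (lowest, median and highest of 10 animals), against 4.07, 5.12 and 6.32 in Control kidneys. All 10 ND animals lay above the Control mean and 7 lay above the highest Control animal, which was Control_02. The difference was 1.46 ± 0.27 (SE), a 2.75-fold rise (adjusted p = 0.00268). IFNAR1, a chain of the receptor for type I interferons, read 7.78, 8.51 and 9.69 in ND kidneys, against 7.08, 7.83 and 8.10 in Control kidneys. Again all 10 ND animals were above the Control mean, 8 of them above every Control animal, with ND_47 the highest. Its rise was 0.87 ± 0.21 (SE), or 1.83-fold (adjusted p = 0.0170).

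IFNAR2, the partner chain of IFNAR1, read 6.84, 7.73 and 8.84 in ND kidneys, against 6.91, 7.36 and 7.51 in Control kidneys. Of the ND animals 6 exceeded every Control animal, but ND_31 was below all of them, and the difference of 0.47 ± 0.20 (SE) did not pass (adjusted p = 0.141). A dimmer probe set of IFNAR2 differed by 0.59 (adjusted p = 0.103). IFNGR1, the ligand-binding chain of the interferon gamma receptor, read 8.24, 8.94 and 10.08 in ND kidneys, against 8.04, 8.37 and 8.83 in Control kidneys. Its difference of 0.58 ± 0.18 (SE) lay just outside the threshold (adjusted p = 0.0533). It passed under quantile normalization (0.0474), with arrays shifted to a common median (0.0490), without dim probe sets (0.0362) and with array weights (0.0329), and also without ND_31, ND_193, ND_198 or Control_199 (adjusted p 0.0209 to 0.0395). In the RefSeq annotation of the pig assembly Sscrofa11.1, IFNAR2, IL10RB, IFNAR1 and IFNGR2 follow each other directly in that order. IFNGR2 is not among the 60 members, and IFNGR1 lies apart from this group.

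The 4 receptor chains ordered the ND animals alike. Across the 10 ND animals IFNAR1 and IFNGR1 had a Pearson r of 0.937 and a Spearman rho of 0.964 (adjusted permutation p of 0.00028 and 0.00066). The r was 0.904 without the 2 animals farthest from the IFNAR1 median and 0.93 among the 7 ND animals numbered up to 100. IFNAR1 and its partner IFNAR2 had an r of 0.946 and a rho of 0.927 (adjusted permutation p of 0.00028 and 0.00144), with an r of 0.869 without the 2 farthest animals and 0.96 among those 7. The neighbours IL10RB and IFNAR1 had an r of 0.834 and a rho of 0.818 (adjusted permutation p of 0.00843 and 0.0158), and the r was 0.653 without the 2 farthest and 0.775 among those 7. For the other 3 pairs in ND animals r lay between 0.762 and 0.951 (adjusted permutation p up to 0.0213 for r and 0.0388 for rho). Without the 2 farthest animals these 3 had r between 0.698 and 0.911, and among the 7 ND animals numbered up to 100 between 0.689 and 0.945. Across the 10 Control animals the 6 pairs had r between 0.382 and 0.664, and none passed (adjusted permutation p 0.0829 to 0.299 for r). These 12 relations form 1 family with Benjamini-Hochberg adjustment and 100000 resamples each, and the difference between the groups' correlations was not tested. The 4 readings of an animal share its RNA sample and the scaling of its array. Whether other genes order the ND animals in the same way was not tested, so the ordering is not shown to be particular to these chains. IL1R1 and TNFRSF1A also read lowest in ND_31 and highest in ND_47 among ND animals, as IFNAR2 and IFNGR1 did. For IL1R1, TNFRSF1A and TNFRSF1B, as for IFNAR1 and IFNAR2, ND_47, ND_92 and ND_100 read above every other ND animal. Part of the ordering was thus also seen in receptors outside these 4 chains.

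**Figure D3:**
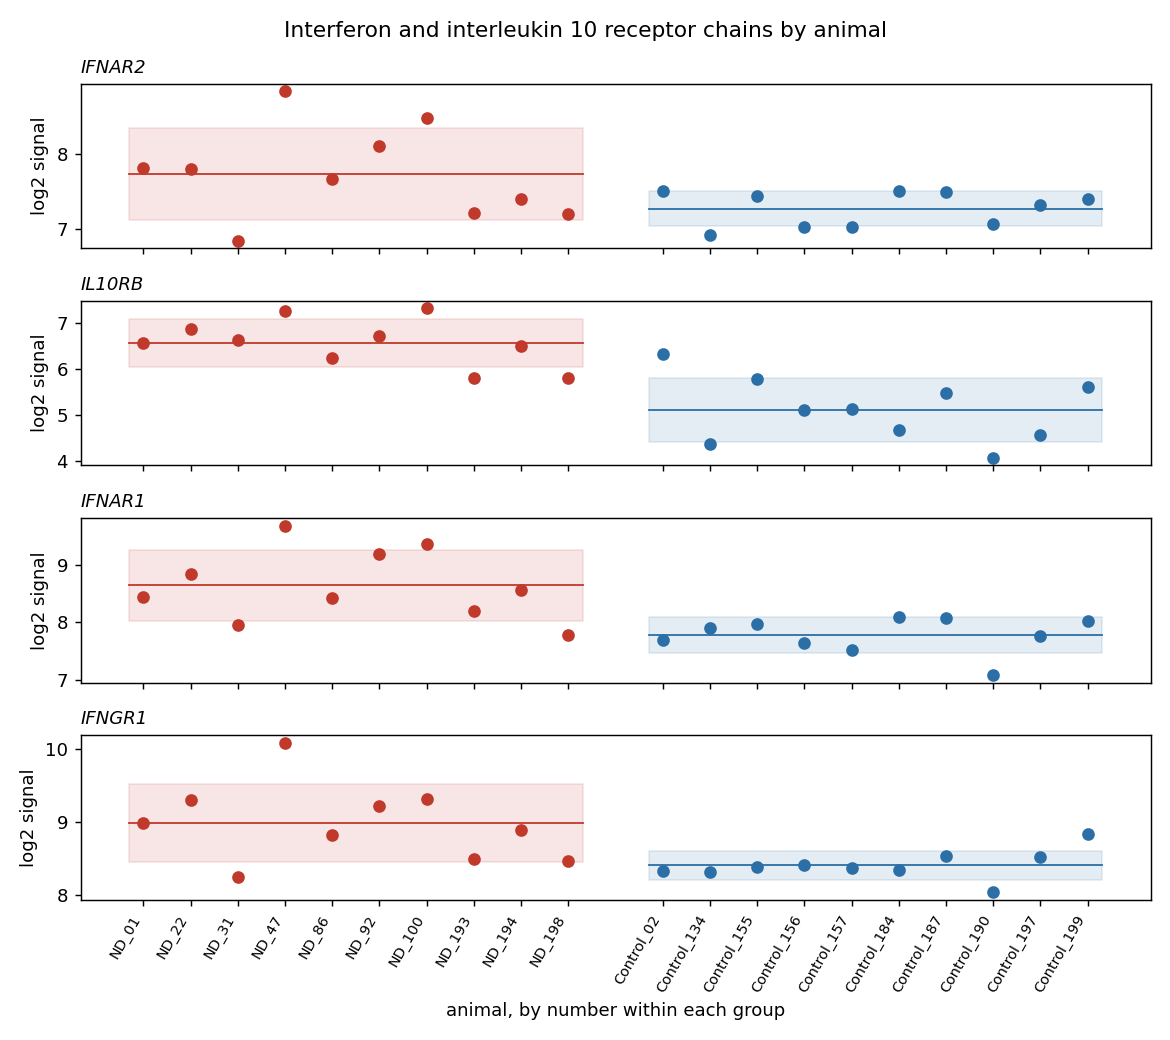
Log2 signal of IFNAR2, IL10RB, IFNAR1 and IFNGR1 in each ND animal (red, left) and each Control animal (blue, right), with the group mean (line) and SD (band). ND_47 is the highest ND animal for IFNAR2, IFNAR1 and IFNGR1, ND_100 is the highest for IL10RB, and the ND band is wider than the Control band for every gene but IL10RB.

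Among the other interleukin receptors IL27RA and IL2RG rose. IL27RA encodes the ligand-specific chain of the interleukin 27 receptor, found mainly on lymphocytes and myeloid cells. It read 6.19, 6.48 and 8.32 in ND kidneys, against 5.10, 5.62 and 6.06 in Control kidneys. The lowest ND animal was thus above the highest Control animal, which made IL27RA the 1 member of 60 whose groups did not overlap (0.591% of all genes). Its rise was 1.14 ± 0.23 (SE), or 2.20-fold (adjusted p = 0.00464), and it held at 0.96 or more without any single animal. IL2RG read 2.24, 2.84 and 4.04 in ND kidneys, against 2.10, 2.22 and 2.58 in Control kidneys.

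All 10 Control arrays read IL2RG under background, and 5 of 10 ND arrays read it above: ND_01, ND_22, ND_31, ND_47 and ND_92. Its measured difference of 0.69 ± 0.20 (SE) passed (adjusted p = 0.0382). Over the background floor the rise was 1.10-fold, taken as the ND mean over the mean of, per Control array, the lowest signal above background or the gene's own where higher. ND arrays entered as read, so this ratio is not a strict bound. The call of IL2RG was lost without ND_01, ND_31, ND_47 or ND_92, and without Control_134, Control_155, Control_156, Control_157, Control_184, Control_187, Control_190 or Control_197, with adjusted p values of IL2RG between 0.0502 and 0.0714.

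IL4R, the chain shared by receptors for interleukin 4 and interleukin 13, read 9.17, 10.81 and 11.65 in ND kidneys, against 10.07, 10.81 and 11.18 in Control kidneys. Its difference of -0.14 had a 95% interval of -0.66 to 0.39 and did not pass (adjusted p = 0.719). IL11RA, the specific chain of the interleukin 11 receptor, differed by -0.29 (adjusted p = 0.167), with 1 of 10 ND animals above the Control mean. IL1R1, the signalling receptor for interleukin 1, read 5.23, 6.53 and 9.36 in ND kidneys, against 5.27, 6.75 and 7.03 in Control kidneys. The difference of 0.34 did not pass (adjusted p = 0.567), and ND_47 held the highest reading. Without ND_47 and ND_92 the IL1R1 difference was -0.094. IL13RA1 was above background on 3 ND and 4 Control arrays and differed by -0.22 (adjusted p = 0.635).

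Of 5 TNF receptor superfamily members 1 rose and 4 did not pass. TNFRSF21, also called death receptor 6, read 9.50, 10.12 and 10.72 in ND kidneys, against 8.84, 9.23 and 10.24 in Control kidneys. Every ND animal was above the Control mean and 4 were above the highest Control animal, Control_199. The rise was 0.80 ± 0.18 (SE), or 1.74-fold (adjusted p = 0.0121), and 0.90 without Control_199.

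TNFRSF12A, the receptor for TWEAK (Fn14), a growth-factor-inducible gene, had the largest difference of the family and a wide spread. It read 9.79, 10.99 and 13.01 in ND kidneys, against 8.07, 9.44 and 11.24 in Control kidneys. All 10 ND animals were above the Control mean, yet the groups overlapped widely and the difference of 1.32 ± 0.44 (SE) did not pass (adjusted p = 0.0778). A dimmer probe set of the gene differed by 1.24 (adjusted p = 0.0768). The brighter one passed without Control_199 (0.0404) and with arrays shifted to a common median (0.0490), where the difference was 1.23.

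The TNF receptors themselves gave unlike values. TNFRSF1B (TNFR2, mainly on leukocytes and endothelium) read 7.02, 8.08 and 9.89 in ND kidneys, against 7.02, 7.67 and 7.87 in Control kidneys. Although 8 of 10 ND animals exceeded every Control animal, its difference of 0.69 ± 0.27 (SE) did not pass (adjusted p = 0.115), and it passed without ND_193 (0.0477), the lowest ND animal. TNFRSF1A (TNFR1, found on most cell types) read 9.09, 9.87 and 10.72 in ND kidneys, against 9.92, 10.07 and 10.31 in Control kidneys. Here 6 ND animals lay under every Control animal and 3 lay over every one, and the difference was -0.12 with a 95% interval of -0.46 to 0.22 (adjusted p = 0.610). The difference between the responses of both genes was not tested.

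TNFRSF17, the B cell maturation antigen of plasma cells, read 8.50, 9.18 and 11.33 in ND kidneys, against 9.10, 10.30 and 11.58 in Control kidneys. The difference of -0.73 did not pass (adjusted p = 0.195), with 5 ND animals under every Control animal. Of the 4 measured B and plasma cell markers CD38 and CD79B were at background on all arrays, and JCHAIN, which differed by 1.13 (adjusted p = 0.108), was above it on all, as TNFRSF17 was.

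None of the 8 chemokine receptors passed. CXCR4, the receptor for CXCL12, read 6.52, 7.88 and 8.60 in ND kidneys, against 7.60, 8.37 and 8.80 in Control kidneys, a difference of -0.40 (adjusted p = 0.233). CCR1, a receptor of monocytes and neutrophils for several CC chemokines, was above background on 5 ND arrays and 1 Control array. It read 2.41, 2.94 and 3.53 in ND kidneys, against 1.85, 2.45 and 3.72 in Control kidneys, and the highest reading of all was that of Control_02. Its difference of 0.45 did not pass (adjusted p = 0.145), and it was 0.59 without Control_02 (adjusted p = 0.0286) and -0.042 with a term for animal number.

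Ligands were read above background for 10 of 23 genes, and 1 of the 23 passed. IL16, made as a precursor by lymphocytes and other cells and cleaved to a CD4-binding chemoattractant, read 2.54, 3.76 and 5.22 in ND kidneys, against 2.25, 2.61 and 3.72 in Control kidneys. It stood above background on 9 ND and 3 Control arrays, and 5 ND animals exceeded every Control animal. The measured difference of 1.19 ± 0.31 (SE) passed (adjusted p = 0.0253), and no fold is given because the Control mean of 2.69 lay under background. Without ND_92 the call was lost (adjusted p = 0.0509), as it was without ND_47 and ND_92 (0.94, adjusted p = 0.0738).

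IL15, a growth factor for NK cells and CD8 T cells that binds receptors with the common gamma chain, read 5.41, 6.24 and 7.24 in ND kidneys, against 5.37, 5.90 and 6.18 in Control kidneys. Its difference of 0.35 did not pass (adjusted p = 0.232), with 6 ND animals above every Control animal. IL7, the lymphocyte survival factor, differed by 0.15 (adjusted p = 0.627). TNFSF10 (TRAIL, a death receptor ligand) read 7.22, 8.48 and 9.20 in ND kidneys, against 6.40, 7.80 and 9.54 in Control kidneys, a difference of 0.56 that did not pass (adjusted p = 0.276). TNFSF13 (APRIL, a ligand of the TNFRSF17 product) differed by 0.094 with a 95% interval of -0.62 to 0.81 (adjusted p = 0.860). TNFSF4 (OX40 ligand), IL5 and IFNA1 read between 2.68 and 3.81 on every array, and their differences of -0.080, -0.12 and -0.029 did not pass (adjusted p 0.253 to 0.625). IL10, a ligand of the receptor that contains the IL10RB chain, was above background in 1 animal, ND_47, at 3.05. Its difference was 0.038 (adjusted p = 0.780). IL34, a ligand of the CSF1 receptor, was above background on 3 ND arrays and no Control array, with a difference of 0.078 (adjusted p = 0.278).

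No SOCS gene passed. SOCS1, which blocks JAK kinases after interferon signals, read 3.16, 3.28 and 4.93 in ND kidneys, against 2.67, 3.17 and 3.33 in Control kidneys. Every ND animal was above the Control mean, ND_86 (4.93), ND_47 (4.25) and ND_92 (3.82) stood highest, and the difference of 0.44 did not pass (adjusted p = 0.139). A dimmer SOCS1 probe set above background on all arrays differed by -0.05 (adjusted p = 0.328). Another, under background on all arrays, differed by 0.12 (adjusted p = 0.459). SOCS6 differed by 0.25 (adjusted p = 0.131) and SOCS4 by -0.21 (adjusted p = 0.567). SOCS3, a feedback inhibitor of interleukin 6 type signals, was at background on all 20 arrays.

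Among the 5 other genes TNFAIP8 was lower in ND kidneys. TNFAIP8, a TNF-induced member of the TIPE family of lipid-transfer proteins with an anti-apoptotic role, read 7.55, 8.30 and 8.71 in ND kidneys, against 8.66, 8.92 and 9.31 in Control kidneys. All but 1 of the ND animals lay under every Control animal, the exception being ND_31. It fell by 0.77 on the log2 scale (± 0.16, SE), or 1.7-fold (adjusted p = 0.00663). The dimmer probe set of TNFAIP8 fell as well, by 0.32 on the log2 scale (adjusted p = 0.0409). Its relative TNFAIP8L2, a brake on innate and T cell responses, differed by 0.011 (adjusted p = 0.980). A dimmer TNFAIP8L2 probe set, above background on 9 ND and 5 Control arrays, differed by 0.49 (adjusted p = 0.129). TNFAIP6, a hyaluronan-binding protein secreted in inflammation, differed by -0.21 (adjusted p = 0.131). TNFAIP1 ranged from 3.91 to 10.30 in ND kidneys and from 4.40 to 9.67 in Control kidneys, and its difference of -0.47 had a 95% interval of -1.96 to 1.01. IL18BP, the soluble antagonist of IL18, differed by 0.19 (adjusted p = 0.439).

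**Figure D4:**
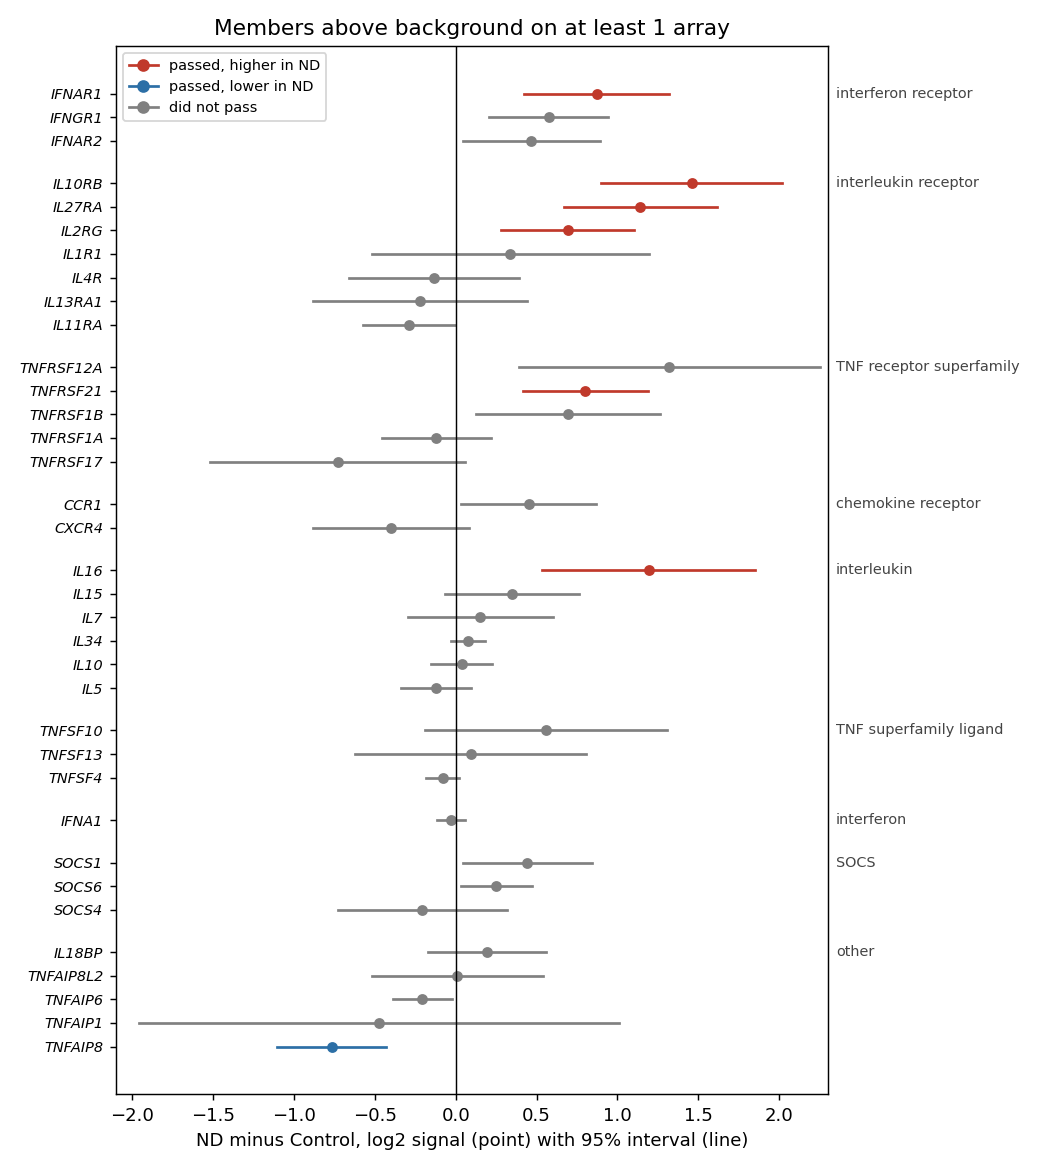
ND minus Control difference in log2 signal (point) and 95% interval (line) for the 35 members above background on at least 1 array, grouped by role. Red marks the 6 members that passed with higher signal in ND, blue the 1 that passed with lower signal, and grey those that did not pass. The largest points are IL10RB at 1.46 and TNFRSF12A at 1.32, the second with the wider interval.

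Genes that carry the receptor signal onward were taken from 3 lists, to be read beside the 5.44% of all genes called higher and 4.55% called lower. Of 23 genes of JAK-STAT signalling 15 were measured: 2 rose, none fell and 13 did not pass, with a median difference of 0.14 against -0.017 over all genes. TYK2, the kinase that IFNAR1 and the IL10RB product bind, rose by 0.49 ± 0.09 (SE), to 8.54 ± 0.25 (SD, n = 10) in ND kidneys, against 8.05 ± 0.14 (SD, n = 10) in Control kidneys (adjusted p = 0.00271). Of 3 dimmer TYK2 probe sets 1, under background on all but 1 array, passed with the opposite sign (-0.13, adjusted p = 0.0155). STAT5A, a transcription factor downstream of common gamma chain receptors, rose by 0.68 ± 0.13 (SE, adjusted p = 0.00409). The 2 dimmer STAT5A probe sets, under background on all but 1 array and on all arrays, differed by -0.0007 and -0.002. At that level a difference could not be read. Of 31 genes of TNF receptor and NF-kB signalling 13 were measured, 1 rose and 12 did not pass, with a median of 0.076. The gene that rose was TNIP1, an inhibitor of NF-kB activation that binds the A20 protein, by 0.57 ± 0.08 (SE; adjusted p = 0.000278). Its 2 dimmer probe sets differed by 0.22 and -0.06 and did not pass. Of 12 adaptor genes of interleukin 1 and Toll-like receptors 6 were measured, none rose, 1 fell and 5 did not pass, with a median of 0.0008. ECSIT, an adaptor that also assembles mitochondrial complex I, fell by 0.33 on the log2 scale (adjusted p = 0.00125).

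Single animals stood out within the ND group. ND_47 had the highest ND reading for 12 of the 26 members above background on all arrays, or 46.2%, against 26.9% of all 5392 such genes, and for 8 of the 14 such receptors. The spread was larger among ND than among Control animals for 19 of those 26 members (73.1%, against 65.3% of all such genes). The median ratio of the SDs, ND over Control, was 1.37 for the members and 1.2 for all such genes. It was highest for TNFRSF1A, whose SD was 0.51 in ND kidneys and 0.13 in Control kidneys, followed by TNFRSF1B, IFNGR1 and IFNAR2. Without ND_47 and ND_92 the 5 members IL10RB (1.35), IL27RA (0.84), IFNAR1 (0.67), TNFRSF21 (0.74) and TNFAIP8 (-0.72) passed, and IL16 and IL2RG (0.56, adjusted p = 0.115) did not.

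Animal numbers were unevenly spread over the groups, and no member passed once they entered the comparison. Of the ND animals 7 were numbered up to 100 and 3 above, and of the Control animals 1 (Control_02) and 9. The labels do not say what the numbers stand for. With a term for numbers up to 100 the calls over all genes dropped to 0.872% higher and 1.91% lower, and among the 60 members to 0 (7 at an unadjusted p under 0.05). IL27RA (0.96 ± 0.29, SE, adjusted p = 0.0949) and IL10RB (0.90 ± 0.27, SE, adjusted p = 0.104) came nearest. Among animals numbered as Control_184 or higher (3 ND and 5 Control) 0.148% of all genes were called higher and 0.177% lower, and again 0 members (8 at an unadjusted p under 0.05). In the term Control_02 alone stands for Control animals numbered up to 100, and the subset holds few animals. Neither fit can therefore tell a part of the numbers from the smaller comparison it rests on.

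All 7 called members kept their direction in that subset. The differences there were 1.16 for IL10RB, 0.52 for IL27RA, 0.43 for TNFRSF21, 0.39 for IL16, 0.38 for IFNAR1, 0.32 for IL2RG and -0.39 for TNFAIP8 (adjusted p 0.142 to 0.621). IL10RB there read 5.81 to 6.50 in ND kidneys, against 4.07 to 5.60 in Control kidneys, and IL27RA read 6.19 to 6.46 in ND kidneys, against 5.62 to 6.06 in Control kidneys. Among members not called, TNFRSF1A differed there by -0.44 (adjusted p = 0.0991), a lower adjusted p than that of any called member. TNFRSF17 differed there by -1.43 (adjusted p = 0.255). With the term these 2 receptors differed by -0.29 (adjusted p = 0.625) and -1.15 (adjusted p = 0.241). IL16 followed the numbers most closely. It read 3.41 to 5.22 in the 7 ND animals numbered up to 100 and 2.54 to 3.18 in the 3 above, against 3.72 in Control_02 and 2.25 to 2.90 in the 9 Control animals above 100. With the term its difference was 0.37 (adjusted p = 0.639). Control_02 was the highest Control animal for 3 of the 6 members that rose: IL10RB, IL16 and IL2RG. The part of the animal numbers in these differences was not tested apart from these fits.

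**Figure D5:**
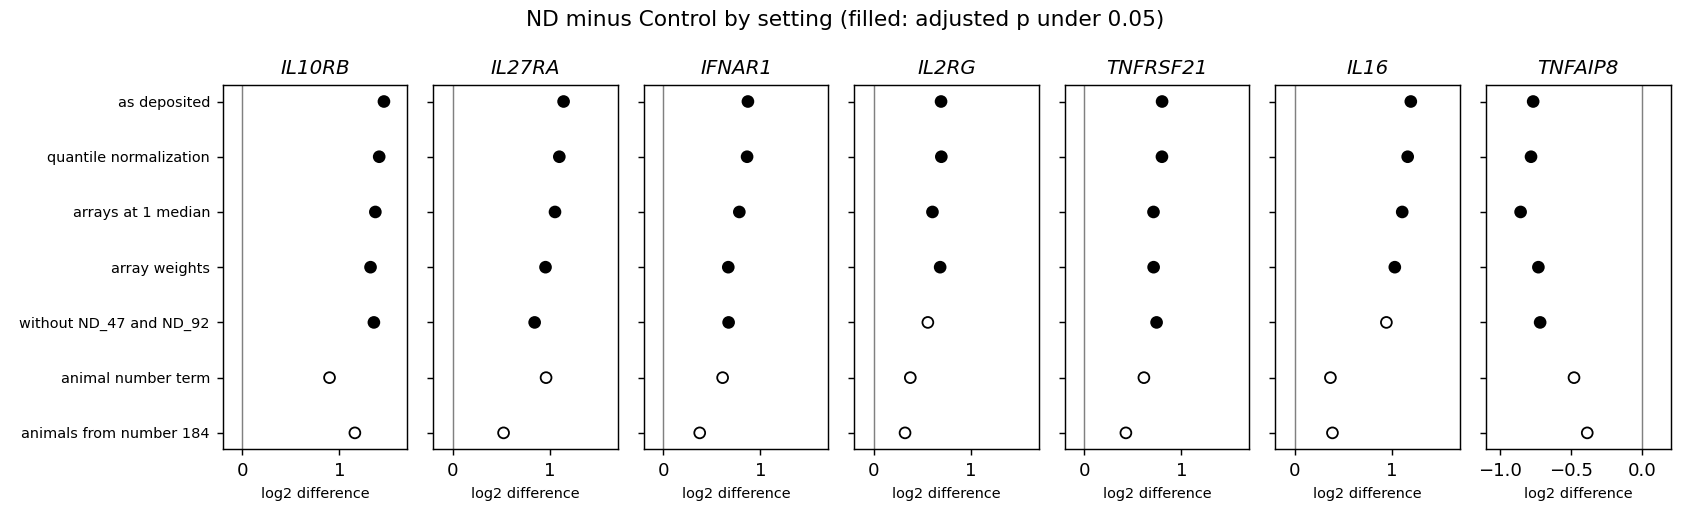
ND minus Control difference in log2 signal for the 7 called members under 7 settings, filled where the adjusted p was under 0.05. All 7 keep their sign in every row. The bottom rows, with a term for animal number and with animals numbered as Control_184 or higher, are open for every gene, and IL16 moves to 0.37 and 0.39 there.

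Some markers of leukocytes were also higher in ND kidneys. For the counts below, 5.44% of all genes were called higher and 4.55% lower. In whole tissue, a change in the number of cells of a type and a change in RNA per cell cannot be told apart. Of 13 measured T and NK cell markers 4 rose (CD3E, CD8A, GNLY and LCK), none fell, and CD4, CD8B, IL7R and PRF1 were at background on all arrays. Their summed log2 signal was 40.4 to 54.1 in ND kidneys, against 36.3 to 42.1 in Control kidneys, where Control_02 was highest. Of 10 measured monocyte and macrophage markers 3 rose (CTSS, LAPTM5 and TYROBP), 3 fell (CD14, CD163 and MRC1), and none was at background throughout, with sums of 66.9 to 84.9 in ND kidneys, against 70.2 to 77.6 in Control kidneys. Of 9 measured neutrophil markers 2 rose (FCGR3A and ITGB2), none fell, and ELANE, ITGAM, S100A12, S100A8 and TREM1 were at background on all arrays. S100A9 and LTF, above background on some arrays, differed by -0.31 and -0.15 and did not pass (adjusted p = 0.694 and 0.595). The sums over the 9 neutrophil markers were 30.2 to 35.1 in ND kidneys, against 28.9 to 34.3 in Control kidneys. ND_47 held the highest ND sum of the macrophage, neutrophil and endothelial lists. Of 9 measured endothelial markers 1 rose (CLDN5), with sums of 55.1 to 69.1 in ND kidneys, against 57.4 to 60.6 in Control kidneys, and none of 4 B and plasma cell markers passed (22.6 to 27.1 in ND kidneys, against 23.0 to 25.5 in Control kidneys). The part of these cells in the rises of IL10RB, IL27RA, IFNAR1, TNFRSF21, IL2RG and IL16 was not tested.

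Genes at background were shifted together by a small amount. Of the 25 members at or under background on all arrays 22 had a lower mean in ND than in Control kidneys, with a median difference of -0.03, and 788 of the 842 genes of this kind in the whole table did so, with a median of -0.03. None of the 25 passed. When arrays were shifted to a common median, the median over all probe sets was -0.12 in place of -0.027, and 19 members were called lower, 16 of them at background on all arrays. That setting called 5.99% of all genes higher and 24.1% lower. IL11RA (-0.38) and TNFAIP6 (-0.30) were the 2 members above background that it added to TNFAIP8. The 5 receptors and IL16 stayed called and higher under this scaling and under quantile normalization.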

How the data were processed

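The deposited values were taken as log2 signals made by the authors from scanned arrays, 1 per probe set and animal, a unit inferred from the range of 0.88 to 16.19. Array medians were 5.09 to 5.35. For background correction, summarization and normalization the methods are not given in the sources used here. TRIzol RNA (250 ng) was labelled as cRNA, per the labels' protocols. Of 24123 probe sets 124 controls were left out. The other 23999 were fitted with limma 3.58.1 (lmFit, eBayes) in R 4.3.3, as deposited and with no covariate. Background was the highest value of 23 tag and tryptophan control probe sets. Symbols came from the platform annotation: 72 probe sets carried the 60 members, all of which matched a RefSeq gene table by Entrez ID with 0 changed symbols, and 6 probe sets with several symbols were not used. The fit was tested on simulated data.

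The members, roles and lists were chosen with earlier results of these data known. The text names members past the threshold, up to 3 with the smallest p and 2 with the highest mean per role, those differing by at least 0.5, and any with another probe set called in the opposite direction (0 members). IL1R1, IL10, IL13RA1, IL34, IL5 and TNFAIP8L2 fall outside this rule and were added after their values were seen, as members above background on some array. Permutation tests were two-sided. Sequences were not used here.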

Additional observations from a re-analysis of the deposited data

Results flagged for a closer look

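The highest or lowest of 10 animals lay far from the others, with a gap to the nearest that passed Dixon's 95% value, in 15 of 90 groups of named members. For normally distributed values chance flags about 1 in 20 groups, a rate that need not hold for groups at or near background. No rate over all genes is given here, so the count is not read as an excess among these members. For members above background on all arrays the gaps were those of TNFAIP1 in ND_86 (3.91, with a gap of 0.488 of the group's range) and in Control_187 (4.40, 0.64), CXCR4 in ND_193 (6.52, 0.475), TNFAIP6 in Control_190 (3.83, 0.494), and IFNA1 in ND_198 (3.65, 0.605) and in Control_197 (3.64, 0.513). For members above background on some arrays they were those of IL10 in ND_47 (3.05, 0.875) and in Control_197 (2.67, 0.834), CCR1 in Control_02 (3.72, 0.652), IL16 in Control_02 (3.72, 0.558), IL5 in Control_157 (3.81, 0.753) and SOCS1 in Control_156 (2.67, 0.543). Under background on all arrays were CSF2 in ND_22 (2.47, 0.884) and CSF3 in ND_100 (2.78, 0.786) and in Control_156 (2.24, 0.51).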

How the results depend on the processing

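No paired analysis was possible because the groups share no animal number. Of 45 named members under 32 alternatives, 1326 values kept direction and side of the threshold, 33 lost a call, 20 gained one and 49 changed sign, the last all in members that did not pass. With the animal number term, and with animals numbered as Control_184 or higher, 0 members, 0 receptors and 0 ligands were higher and 0 members lower, against 6, 5, 1 and 1. At an adjusted p under 0.01 2 members, both receptors, and 0 ligands were higher, and without ND_47 and ND_92 0 ligands. With arrays shifted to the same median 19 members, 9 receptors and 8 ligands were lower. Without each animal in turn 4 to 8 members, 4 to 7 receptors and 0 to 1 ligands were higher. JAK-STAT genes higher were 1 with the mean of all probe sets per gene, 0 with the term and 0 from Control_184, and 2 to 3 without single animals; 2 were lower with arrays shifted. NF-kB genes higher were 2 with arrays shifted, without dim probe sets, with array weights and without ND_47 and ND_92, 0 from Control_184 and 1 to 3 without single animals. NF-kB genes lower were 4 with arrays shifted, 1 with quantile normalization, without dim probe sets and with array weights, 2 with gene means and 0 to 1 without single animals. Adaptor genes higher were 1 without dim probe sets and with array weights and 0 to 1 without single animals, and 0 were lower from Control_184. The cause was not tested.

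Sign changed with the term for CCR1 (-0.042), IFNA1 (0.039), IFNG (0.0011), IL18BP (-0.035), IL1R1 (-0.10), IL5 (0.017), IL7 (-0.24), SOCS3 (0.0022) and TNFSF10 (-0.093). From Control_184 it changed for CSF2 (-0.013), IFNA1 (0.021), IFNAR2 (-0.086), IL10 (-0.11), IL13RA1 (0.038), IL18BP (-0.094), IL1R1 (-0.28), IL5 (0.16), IL7 (-0.19), SOCS1 (-0.0092), TNFAIP8L2 (-0.38), TNFRSF1B (-0.10) and TNFSF13 (-0.51). With arrays shifted it changed for CSF2 (-0.053), CSF3 (-0.033), IL10 (-0.050), IL34 (-0.0100) and TNFAIP8L2 (-0.077), with quantile normalization for IFNG (0.0093), SOCS3 (0.0086) and TNFAIP8L2 (-0.034), with array weights for IL10 (-0.019), and without ND_47 and ND_92 for IL10 (-0.050), IL1R1 (-0.094) and TNFSF13 (-0.19). Leaving out 1 animal changed it for CSF2 (range -0.020 to 0.045), IL10 (-0.043 to 0.081), IL4R (-0.25 to 0.029), TNFAIP8L2 (-0.10 to 0.096) and TNFSF13 (-0.089 to 0.28).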
